A study of Mus musculus with 6 samples.

Results

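The fibroblast growth factor (FGF) ligands Fgf4, Fgf5, Fgf8, Fgf15 and Fgf17 and the receptors Fgfr1, Fgfr2, Fgfr3 and Fgfr4 were followed in mouse embryonic stem cells (ESCs) with lowered Pcl2. These 9 genes were chosen by name, with earlier results of these data known. Their values were read from every probe set that the platform annotation assigns to exactly 1 gene. They had 23 probe sets, of 34945 such probe sets for 18193 genes on the array. The study hybridised 6 arrays with total RNA from R1 cells, a mouse ESC line, grown undifferentiated in serum medium with leukaemia inhibitory factor (LIF). Cells of the Pcl2 shRNA group (3 arrays) stably carried a short hairpin RNA against Pcl2, a Polycomb-like partner of Polycomb repressive complex 2 whose gene symbol is Mtf2. Cells of the mismatch control group (3 arrays) stably carried a mismatched hairpin sequence. The labels call the samples of a group biological replicates and give the Pcl2 shRNA cells as 1 clone, so the hairpin and the clone cannot be told apart.

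FGFs are secreted proteins that bind receptor tyrosine kinases together with heparan sulphate. The bound receptor passes the signal through adaptor proteins to Ras and the kinase ERK, and ERK in turn raises Sprouty and dual-specificity phosphatase (Dusp) genes that damp it. In mouse ESCs Fgf4 is the ligand that the cells make for themselves, and Fgfr1 is a main receptor for it. Signalling through this pair is known to prime the cells to leave the naive state, and Fgf5 is the classical marker of the primed epiblast that follows.

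Promoter sequence is shown for the ligands that lay at opposite ends of the response among those with an entry in the reference table, Fgf4 (higher) and Fgf5 (lower). The 250 bases before the annotated start are from RefSeq (GRCm38.p6), 5′ to 3′ on the gene's strand. They come from chr7:144861136-144861385 (plus strand) for Fgf4 and chr5:98253934-98254183 (plus strand) for Fgf5. Capitals mark matches to 4 motifs searched on both strands, namely the TATA box TATAAA, its variant TATATA, the Sp1-type box GGGCGG, which reads CCGCCC on the other strand, and the octamer ATGCAAAT.
Fgf4: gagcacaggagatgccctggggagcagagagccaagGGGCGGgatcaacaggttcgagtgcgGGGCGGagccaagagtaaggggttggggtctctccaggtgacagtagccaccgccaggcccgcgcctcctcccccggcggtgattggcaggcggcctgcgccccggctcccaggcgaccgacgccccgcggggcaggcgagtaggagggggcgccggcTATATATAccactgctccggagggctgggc
Fgf5: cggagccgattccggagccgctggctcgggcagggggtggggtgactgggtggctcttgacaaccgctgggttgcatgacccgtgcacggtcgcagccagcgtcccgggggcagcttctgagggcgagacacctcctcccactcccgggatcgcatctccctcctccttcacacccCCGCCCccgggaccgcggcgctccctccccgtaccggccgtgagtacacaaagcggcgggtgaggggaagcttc
The Fgf4 promoter held TATATA in 2 overlapping matches, 30 and 28 bases before the start, and GGGCGG 214 and 188 bases before it. The Fgf5 promoter held GGGCGG, read on the other strand, 74 bases before the start and no match to the other motifs. TATATA occurred in 5.25% of 32851 promoters of the same length and GGGCGG in 32.7%. TATAAA, in 12.4% of all promoters, and ATGCAAAT, in 1.60%, matched neither sequence. Both promoters were rich in CpG dinucleotides, with 21 in Fgf4 and 24 in Fgf5 against a median of 6 over all promoters. GC content was 71.2% for Fgf4 and 70.8% for Fgf5, against a median of 52.4%. These matches describe the letters in the window and say nothing of binding, which the arrays did not measure.

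The values are MAS5 signals, the linear intensity that the Affymetrix software gives per probe set, scaled by the authors to a trimmed mean of 150.001 on each array. Between 57.2% and 61.9% of probe sets lay above the background of 20.3, the highest signal of bacterial control probe sets without a spike, with the lowest share in mismatch control replicate 2. The ratio of 3′ to 5′ signal was between 0.80 and 0.82 for Gapdh, and log2 values of tested genes correlated at 0.961 to 0.977 within groups and 0.907 to 0.943 between them. Mtf2, the targeted gene, gave signals of 1048, 1167 and 869.6 in Pcl2 shRNA cells, against 1951, 1513 and 1704 in mismatch control cells. Its log2 fold change was -0.74 (SE 0.17) with an adjusted p of 0.0157, and the Pcl2 shRNA mean was 59.7% of the mismatch control mean. That call was lost without Pcl2 shRNA replicate 3 (adjusted p = 0.0574) and without mismatch control replicate 1 (adjusted p = 0.0519). Of 10 ESC marker genes, none was at background on all arrays of either group. Their summed signal was 36994 to 47893 in Pcl2 shRNA cells and 24695 to 32152 in mismatch control cells. Of 10 tested, 4 rose (Sox2, Zfp42, Tdgf1 and Esrrb), beside 4.46% of all genes, and 6 did not pass. Of those 6, Nanog (log2 0.59), Dppa5a (0.44), Pou5f1 (0.36), Utf1 (0.34) and Sall4 (0.04) were above 0, and Lin28a (-0.36) below. Nanog passed with the replicate number as a block (limma adjusted p = 0.0107).

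Fold changes are log2 values of Pcl2 shRNA over mismatch control, of signal plus 7, which understates changes of dim genes. Each gene was represented by its brightest probe set in limma's moderated test, and p-values were adjusted over 13095 genes with 0.05 as the threshold. Errors beside means are SDs over the 3 arrays of a group. Of the 9 genes, Fgf4 rose and Fgf5, Fgf8, Fgf17 and Fgfr1 fell, while 12.6% of all genes tested passed in either direction, 4.46% higher and 8.16% lower. The median change of the 9 was -0.31, beside 0.02 over all genes. Fgf5 and Fgf8 entered the test through their control signals alone, so they had to differ to be tested at all, and the counts are a description. The count of 5 fell to 3 without Pcl2 shRNA replicate 1, without Pcl2 shRNA replicate 3 and without mismatch control replicate 2, and to 2 without mismatch control replicate 3. The groups did not overlap for 6 of the 9, beside 31.2% of all genes. An exact permutation test of 3 against 3 arrays cannot give a two-sided p below 0.1, the value for each of these 6. Probe signals of different genes are not set against each other, because probes differ in brightness.

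**Figure D1:**
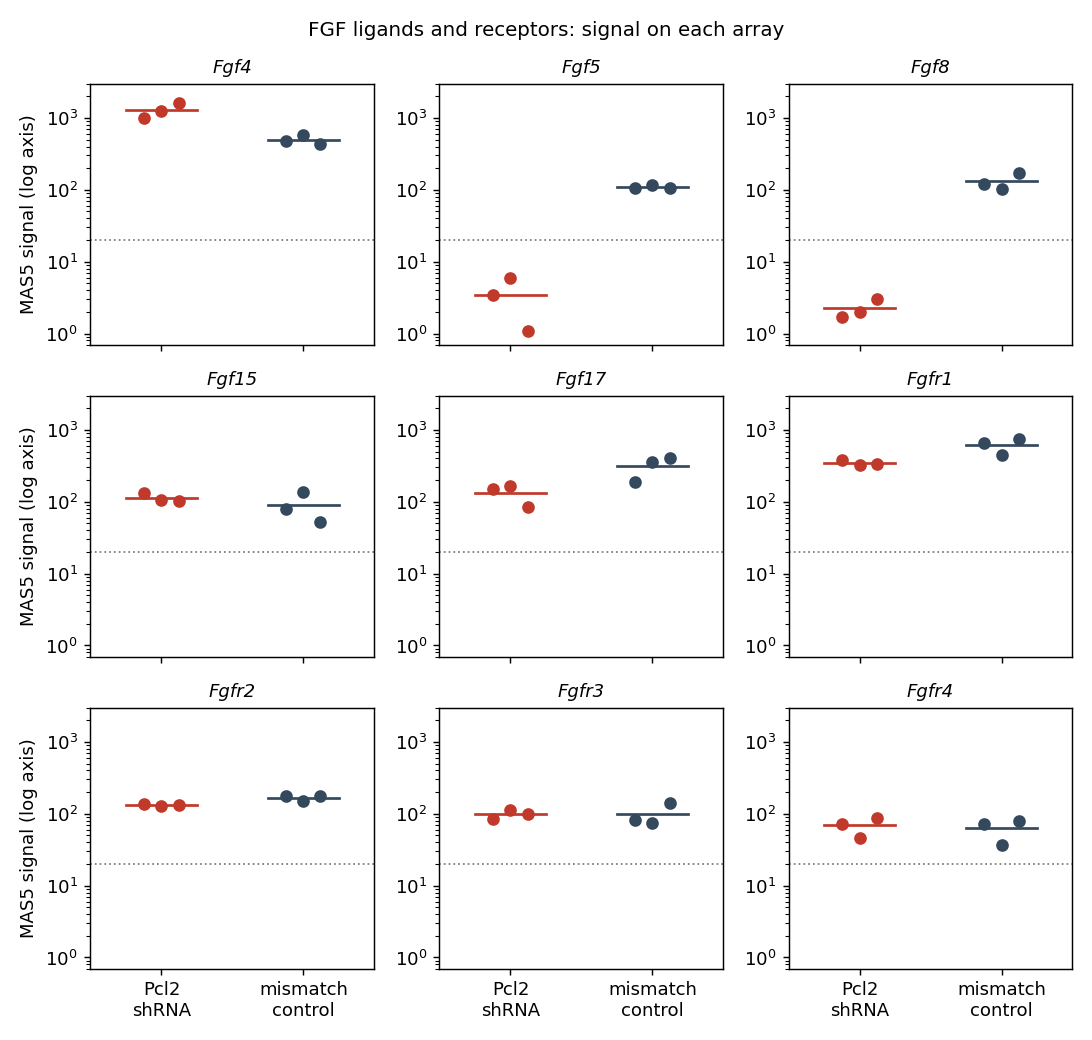
MAS5 signal (log axis) of the brightest probe set of each FGF ligand and receptor on the 3 Pcl2 shRNA arrays (red, left) and the 3 mismatch control arrays (dark, right), with bars at group means and a dotted line at the background of 20.3. Fgf4 is higher in all Pcl2 shRNA samples, Fgf5 and Fgf8 drop below the background there, and Fgf15, Fgfr3 and Fgfr4 overlap between the groups.

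Fgf4, the autocrine ligand of ESCs, had signals of 1002, 1256 and 1613 in Pcl2 shRNA cells, against 483, 574 and 437 in mismatch control cells. Every Pcl2 shRNA sample lay above every control sample. The means were 1290.6 ± 307 in Pcl2 shRNA cells and 498 ± 69.3 in mismatch control cells, so the level was 259% of the control's. The log2 fold change was 1.34 (SE 0.20, 95% interval 0.91 to 1.78, adjusted p = 0.00180). When every probe set was tested, which called 10.4% of 23186, the next brightest gave 1.39 (adjusted p = 0.00247) and the third 1.20 (adjusted p = 0.0176). The third had signals of 239.9, 359.6 and 503 in Pcl2 shRNA cells, against 122, 175 and 154 in mismatch control cells. The dimmest, which was not tested, was between 20 and 26.8 in Pcl2 shRNA cells and below background on each control array. With each array left out in turn the Fgf4 change was between 1.17 and 1.51 and passed each time. The third probe set missed the threshold without Pcl2 shRNA replicate 2 (adjusted p = 0.0679) and without mismatch control replicate 1 (adjusted p = 0.0617).

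Fgf5, the primed epiblast marker that also ends the growth phase of hair, was at background in Pcl2 shRNA cells. Its signals there were 3.39, 5.84 and 1.07, against 106, 117 and 106 in mismatch control cells. Control values lay within a narrow band (109.7 ± 6.27), and each Pcl2 shRNA value was below the background of 20.3. The level was at least 5.40-fold lower in Pcl2 shRNA cells (limma adjusted p = 3.94e-05). That p is a description, because Fgf5 entered the test through its control signals alone. The second probe set, too dim for the test, read 7.73, 1.45 and 9.75 in Pcl2 shRNA cells, against 51.6, 46.7 and 48.7 in mismatch control cells. It put Fgf5 at least 2.41-fold lower. The bound from the brighter probe set was between 5.23 and 5.50 with a mismatch control array left out. Leaving out a Pcl2 shRNA array cannot change it, because values below background are set to the background. In RNA from whole cultures, fewer cells that express a gene and less RNA per cell cannot be told apart.

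Fgf8, a patterning signal of the gastrulating embryo, had a single probe set. It read 1.68, 1.97 and 3.07 in Pcl2 shRNA cells, against 119.8, 102 and 172 in mismatch control cells. As for Fgf5, all Pcl2 shRNA arrays were below background and all control arrays well above it. The level was at least 6.32-fold lower in Pcl2 shRNA cells (limma adjusted p = 3.05e-05). That p is a description, because Fgf8 entered the test through its control signals alone. The bound was between 5.45 and 7.08 with a mismatch control array left out, and leaving out a Pcl2 shRNA array cannot change it.

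Fgf17, a ligand of the same subfamily as Fgf8, fell as well but stayed above background. Its signals were 149, 164 and 84.2 in Pcl2 shRNA cells, against 189.6, 354 and 405 in mismatch control cells. The groups did not overlap, though the highest Pcl2 shRNA sample came close to the lowest control sample. The log2 fold change was -1.19 (SE 0.31, 95% interval -1.89 to -0.50, adjusted p = 0.0329), a level of 41.9% of the control's. The second probe set gave 50.1, 47.6 and 24.5 in Pcl2 shRNA cells, against 56.0, 77.3 and 119 in mismatch control cells. Its change of -0.92 did not pass (adjusted p = 0.0994). The Fgf17 call was lost in 4 of the 6 fits with an array left out (adjusted p up to 0.0979), namely without Pcl2 shRNA replicate 1 or 3 or mismatch control replicate 2 or 3. The change there ranged from -1.30 to -0.91.

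Fgf15, which in the mouse intestine acts as a hormone that lowers bile acid synthesis, did not pass the test. Its signals were 132, 105 and 102 in Pcl2 shRNA cells, against 79.6, 138 and 51.9 in mismatch control cells. The groups overlapped, and mismatch control replicate 2 was the highest of all 6 arrays. Fgf15 had a log2 fold change of 0.40 (SE 0.30, 95% interval -0.28 to 1.07, adjusted p = 0.464).

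Fgf4 and Fgf15 are next to each other in gene order on chromosome 7, in the order Fgf3, Fgf4, Fgf15, LTO1 and Ccnd1. Of these neighbours, Fgf4 alone passed the test. Fgf3, another FGF ligand, had a signal of 31.3 ± 6.90 in Pcl2 shRNA cells and 20.5 ± 3.95 in mismatch control cells (log2 0.47, adjusted p = 0.288). LTO1 was at 148 ± 23.5 in Pcl2 shRNA cells and 149 ± 15.8 in mismatch control cells (log2 -0.02, adjusted p = 0.971). Ccnd1, the cyclin D1 gene, gave -0.38 (adjusted p = 0.410, but 0.0477 with the replicate number as a block). No test compared the Fgf4 change with that of its neighbours.

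Fgfr1, the receptor known to carry most Fgf4 signalling in naive cells, fell. The brightest probe set read 380.4, 327 and 336 in Pcl2 shRNA cells, against 657, 448 and 738 in mismatch control cells. The groups did not overlap. The means were 348 ± 28.6 in Pcl2 shRNA cells and 614 ± 149.6 in mismatch control cells, a level of 56.6%. This was a log2 fold change of -0.78 (SE 0.20, 95% interval -1.23 to -0.34, adjusted p = 0.0291). The second probe set read 234, 274 and 289 in Pcl2 shRNA cells, against 595, 739 and 633 in mismatch control cells. It gave a wider gap of -1.28 (adjusted p = 0.00150 with every probe set tested), while the dimmest of the 3 gave -0.49 (adjusted p = 0.175). Mismatch control replicate 2 was the lowest control array for the brightest probe set and the highest for the second. The call of the brightest probe set held without mismatch control replicate 2 (adjusted p = 0.00717) and was lost in the other 5 fits with an array left out (adjusted p up to 0.114), whereas the second passed in all 6 (adjusted p 0.00444 to 0.0107).

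Fgfr2, a receptor used in primitive endoderm and trophectoderm, did not pass. Its signals were 138, 128 and 131 in Pcl2 shRNA cells, against 177, 148 and 175 in mismatch control cells. The groups did not overlap, but the gap was small, with a log2 fold change of -0.31 (95% interval -0.70 to 0.07, adjusted p = 0.298). The second probe set read 78.5, 89.4 and 88.6 in Pcl2 shRNA cells, against 149, 112 and 157 in mismatch control cells. Its change of -0.65 did not pass (adjusted p = 0.0658), but did with the replicate number as a block (adjusted p = 0.0316) and without mismatch control replicate 2 (adjusted p = 0.0396). The third probe set was near background in both groups.

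Fgfr3, a brake on bone growth, had a mean of 98.9 ± 14.2 in Pcl2 shRNA cells and 98.9 ± 36.2 in mismatch control cells. Its signals were 85.2, 114 and 97.9 in Pcl2 shRNA cells, against 80.8, 75.4 and 141 in mismatch control cells. The log2 fold change was 0.04 (95% interval -0.52 to 0.61, adjusted p = 0.940), and the second probe set gave 0.02. Fgfr4, the liver receptor through which Fgf15 acts, read 72.6, 46.0 and 88.2 in Pcl2 shRNA cells, against 70.9, 37.0 and 79.8 in mismatch control cells. The arrays numbered 2 were the lowest in both groups. Fgfr4 had a log2 fold change of 0.14 (95% interval -0.55 to 0.84, adjusted p = 0.826). The intervals leave room for changes of up to 0.61 for Fgfr3 and 0.84 for Fgfr4 on the log2 scale.

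**Figure D2:**
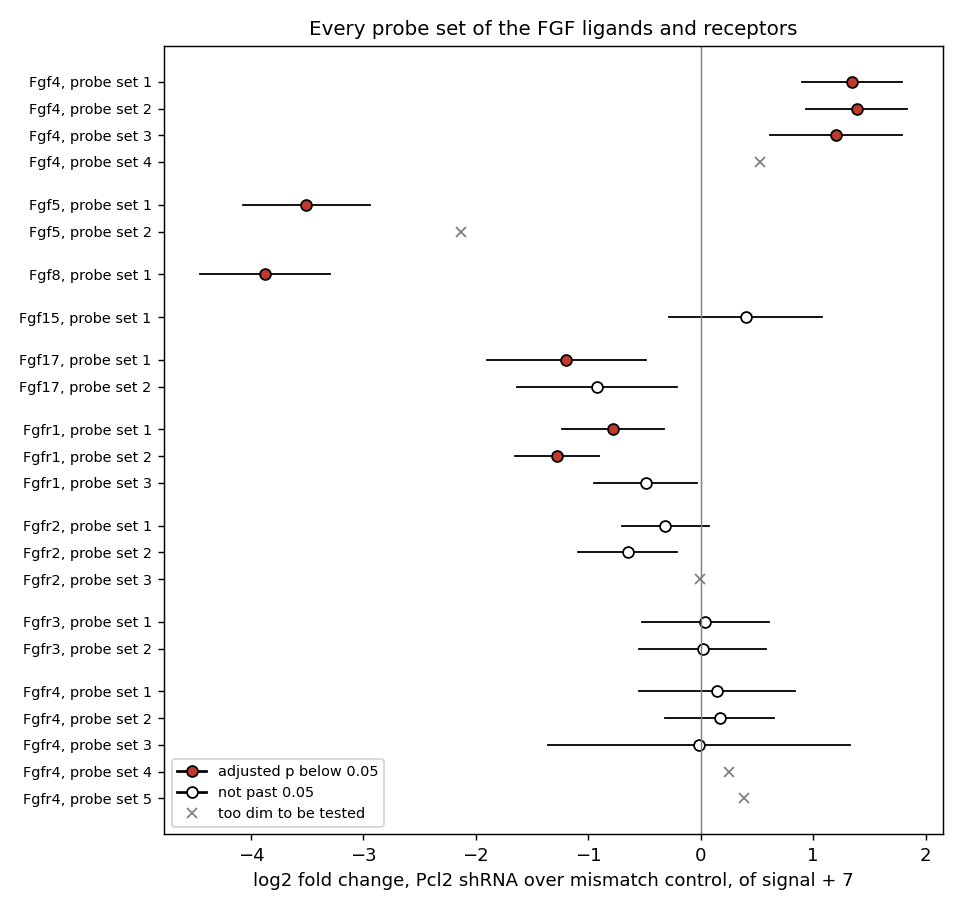
Log2 fold change of Pcl2 shRNA over mismatch control for each of the 23 probe sets, brightest first within a gene, with 95% intervals for the 18 that were tested and crosses for those too dim. All 3 tested Fgf4 probe sets lie right of 0 and all 3 Fgfr1 probe sets left of it, while those of Fgfr3 and Fgfr4 straddle 0.

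Of 17 other FGF genes on the array, 8 were bright enough to test, with a median log2 fold change of -0.01. The 9 that were not tested include Fgf2, the basic FGF often added to cultures. Its signals were 5.41, 11.7 and 11.9 in Pcl2 shRNA cells, against 14.7, 6.28 and 1.03 in mismatch control cells, all below background. Of the 8 tested, Fgf13 fell and none rose, a share near the 12.6% of all genes that passed. Fgf13 encodes an FGF homologue that stays inside the cell and binds sodium channels rather than FGF receptors. Its signals were 107, 105 and 105 in Pcl2 shRNA cells, against 374, 337 and 225 in mismatch control cells (log2 -1.47, adjusted p = 0.00168). Its other tested probe set gave -0.76.

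Genes for co-receptors, carriers of FGFs and the heparan sulphate chains they bind were measured next. Of 22 tested, 8 fell and 1 rose, beside 8.16% and 4.46% of all genes, with a median of -0.39 beside 0.02 over all genes. The list was chosen with earlier results of these data known, so its counts are a description. Flrt3, among the 8, entered the test through its control signals alone. Hs6st2, which adds sulphate to heparan chains, had signals of 42.0, 40.7 and 33.5 in Pcl2 shRNA cells, against 308, 264 and 195 in mismatch control cells (log2 -2.50, adjusted p = 0.00011). Fgfbp1, a carrier that frees FGFs from the matrix, had 58.9, 40.5 and 27.9 in Pcl2 shRNA cells, against 388, 204 and 389.8 in mismatch control cells (log2 -2.75, adjusted p = 0.000437). Both were lower on all Pcl2 shRNA arrays. Sulf1 and Sulf2 encode the enzymes that remove sulphate from the same chains, and they moved in opposite directions. Sulf1 had a signal of 192 ± 41.9 in Pcl2 shRNA cells and 519 ± 91.4 in mismatch control cells (log2 -1.41, adjusted p = 0.00174). Sulf2 had 1688 ± 481 in Pcl2 shRNA cells and 950.1 ± 145 in mismatch control cells (log2 0.80, adjusted p = 0.0320). The lowest of its 3 tested probe sets gave -0.16. The core proteins that carry the chains included Gpc4 (log2 -1.28, adjusted p = 0.00320), Sdc1 (log2 -0.92, adjusted p = 0.00743) and Gpc6 (log2 -1.19, adjusted p = 0.0213), which fell. Fgfbp3, another carrier (log2 -1.30), and Flrt3, a membrane protein that binds FGF receptors (log2 -1.42), also fell, with an adjusted p of 0.0494 each. Flrt3 was at background on 2 of the 3 Pcl2 shRNA arrays. The 4 tested probe sets of Gpc6 ranged from -1.32 to 0.34, and their mean did not pass (log2 -0.69, adjusted p = 0.0933). With single arrays left out, Sulf2, Gpc6 and Fgfbp3 passed in 2 of 6 fits each and Flrt3 in 1 of 6, and 5 genes in all passed without Pcl2 shRNA replicate 2 and without mismatch control replicate 3.

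Of 18 tested genes for the adaptors and kinases between receptor and ERK, 2 fell and none rose, with a median of 0.00. That share is near the background of 8.16% of all genes lower and 4.46% higher. Ptpn11, the phosphatase Shp2 that links FGF receptors to Ras, had signals of 430.0, 412 and 379 in Pcl2 shRNA cells, against 755, 642 and 728 in mismatch control cells (log2 -0.79, adjusted p = 0.00710). Another of its 3 tested probe sets gave 0.00, so they disagree. Shc1, an adaptor for receptor tyrosine kinases, had 417 ± 19.7 in Pcl2 shRNA cells and 856 ± 231 in mismatch control cells (log2 -0.99, adjusted p = 0.00860).

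Genes that ERK signalling is known to raise, most of which feed back on it, had a median of -0.66, beside 0.02 over all genes. Of 20 tested, 10 fell and 1 rose, beside 8.16% and 4.46% of all genes. This list too was chosen with earlier results known, so the counts are a description. Spred3, among the 10, entered the test through its control signals alone and was at background on 2 of the 3 Pcl2 shRNA arrays. Dusp5, a nuclear phosphatase for ERK, had signals of 43.1, 26.1 and 31.1 in Pcl2 shRNA cells, against 296, 290.1 and 379.5 in mismatch control cells (log2 -3.04, adjusted p = 3.94e-05). Dusp14 had 62.1, 92.5 and 77.0 in Pcl2 shRNA cells, against 510.0, 201 and 452 in mismatch control cells (log2 -2.14, adjusted p = 0.00198). No Pcl2 shRNA value reached a control value for either phosphatase. Phlda1, an early target of growth factors, had 152, 107 and 131 in Pcl2 shRNA cells, against 1543, 415 and 731 in mismatch control cells (log2 -2.53, adjusted p = 0.00209). Ier3 had 180.0 ± 19.9 in Pcl2 shRNA cells and 447 ± 98.7 in mismatch control cells (log2 -1.26, adjusted p = 0.00238). Dusp4 (log2 -2.54), Spred3 (-1.998), Fos (-1.44), Dusp6 (-0.83), Il17rd (-0.73) and Dusp1 (-0.56) were the other falls, with adjusted p between 0.00428 and 0.0460. Dusp6, the cytoplasmic phosphatase that is a usual readout of FGF signalling, had 573, 406 and 426 in Pcl2 shRNA cells, against 1156, 723 and 685 in mismatch control cells.

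Spry4, which encodes a Sprouty inhibitor of the same pathway, went the other way. Its signals were 869, 771 and 707 in Pcl2 shRNA cells, against 352, 387 and 130.2 in mismatch control cells. The log2 fold change was 1.55 (SE 0.34, adjusted p = 0.0144), and its 4 tested probe sets gave 1.22 to 1.58. The ETS factors Etv4 and Etv5, standard FGF targets, did not pass. Etv4 had 369 ± 86.1 in Pcl2 shRNA cells and 223 ± 93.0 in mismatch control cells (log2 0.78, adjusted p = 0.151, but 0.00735 with the replicate block). Etv5 had 2653 ± 376 in Pcl2 shRNA cells and 2389 ± 518 in mismatch control cells (log2 0.17, adjusted p = 0.653). Egr1, an immediate early gene of ERK, gave 0.29 (adjusted p = 0.464), and Spry2 gave 0.10. The genes of this list therefore did not share 1 direction. Spry4 did not pass without Pcl2 shRNA replicate 1 (adjusted p = 0.0511), nor Spred3 without Pcl2 shRNA replicate 2 (adjusted p = 0.0503). Of 6 fits with an array left out, Dusp6 passed in 3, Fos in 2, Il17rd in 1 and Dusp1 in none. The 11 genes that passed became 6 without Pcl2 shRNA replicate 2, and 7 without Pcl2 shRNA replicate 3 or mismatch control replicate 2.

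**Figure D3:**
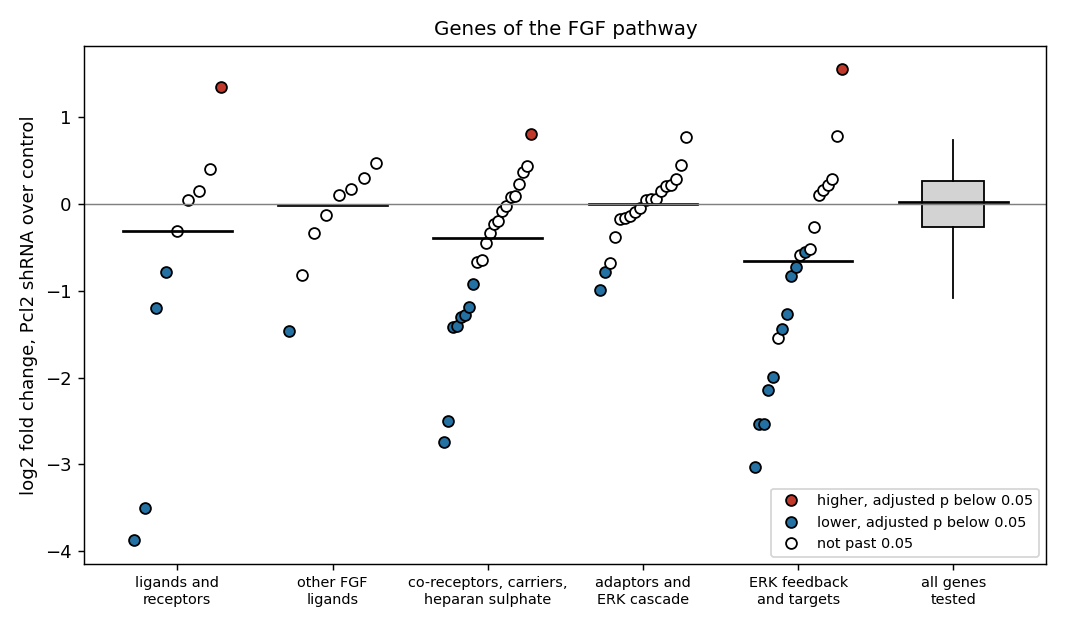
Log2 fold change of each tested gene of the FGF ligands and receptors and of 4 other groups of pathway genes, with bars at group medians and a box for all 13095 genes (quartiles, median, whiskers from the 5th to the 95th percentile). Filled points passed the test. Co-receptor and ERK target groups lie mostly below 0, while the adaptor group centres on 0.00.

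**Figure D4:**
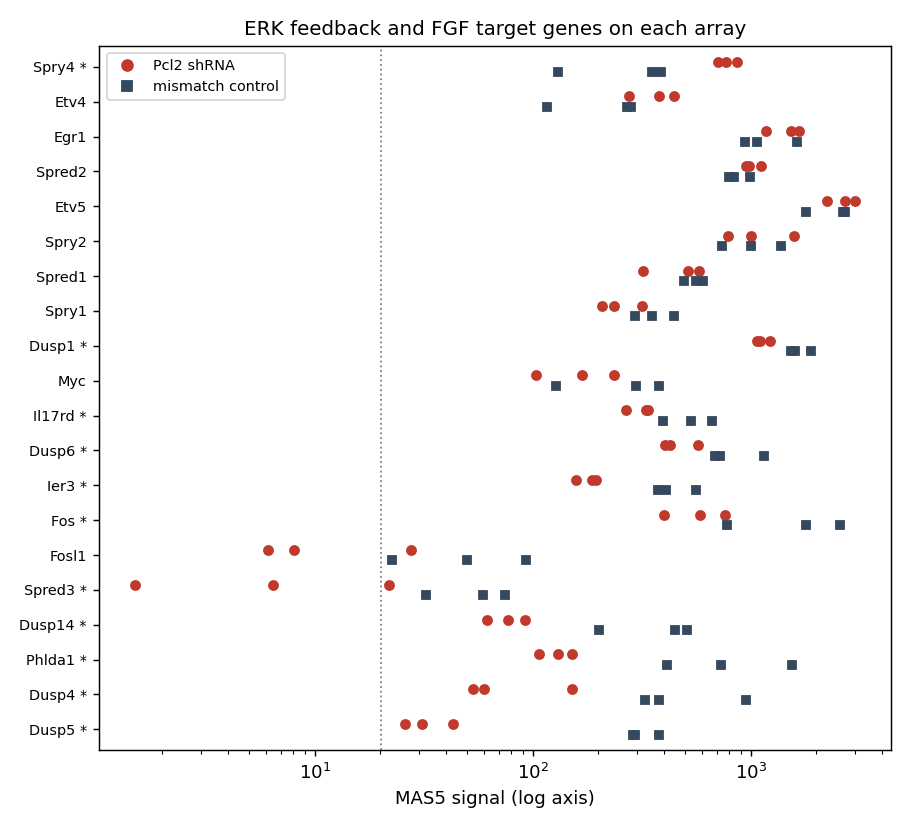
MAS5 signal (log axis) of each ERK feedback and target gene on the 3 Pcl2 shRNA arrays (red circles, upper row of a gene) and the 3 mismatch control arrays (dark squares, lower row), ordered by fold change. Asterisks mark genes that passed the test and the dotted line the background of 20.3. Spry4 at the top is higher on all Pcl2 shRNA arrays, and Dusp5 at the bottom is lower on all of them.

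Markers of other cell types were read as lists. Summed signals of the primed epiblast and trophectoderm lists did not overlap between the groups, while those of the other lists below did. The primed epiblast list, which holds Fgf5 itself, had a summed signal of 3179 to 4420.4 in Pcl2 shRNA cells and 6186 to 9021 in mismatch control cells. Dnmt3b and Sox4 make up most of that sum in mismatch control cells. Fgf5 entered the test through its control signals alone. Of the 10 genes of this list, all tested, Fgf5, Pou3f1, Dnmt3b, Sox4 and Cdh2 fell, beside 8.16% of all genes. Of those that did not pass, Foxd3 (log2 1.07), Lef1 (0.65) and Otx2 (0.05) were above 0, and Zic2 (-0.78) and Dnmt3a (-0.30) below. Pou3f1, an early epiblast factor, had 138, 104 and 70 in Pcl2 shRNA cells, against 843, 921 and 731 in mismatch control cells. With the replicate block, which called 23.8% of all genes, 2 of the 10 rose (Foxd3 and Lef1) and 6 fell. Zic2 was among the 6 (limma adjusted p = 0.0375). The trophectoderm list of 8 genes summed to 407 to 520.0 in Pcl2 shRNA cells and 4504 to 8846 in mismatch control cells. Of 6 tested, Cdx2, Krt8, Krt18 and Krt7 fell, beside 8.16% of all genes. Eomes (log2 -1.03, adjusted p = 0.0992) and Ascl2 (log2 -0.42, adjusted p = 0.531) did not pass, and Elf5 was too dim to test. Cdx2 was at background on all Pcl2 shRNA arrays, at least 3.67-fold lower, and entered the test through its control signals alone. Krt8 and Krt18 make up most of the sum in mismatch control cells. Krt8, a keratin of simple epithelia, was at 147 ± 17.8 in Pcl2 shRNA cells and 3549.9 ± 1027 in mismatch control cells. Gata3, a defining trophectoderm factor, was at background on all arrays. Primitive endoderm markers summed to 362 to 422 in Pcl2 shRNA cells and 393 to 508 in mismatch control cells, with Lama1 higher and Dab2 lower. Fibroblast markers summed to 295 to 593 in Pcl2 shRNA cells and 428 to 1053 in mismatch control cells. Lum and Dcn were at background on all arrays. Twist2 fell, but entered the test through its control signals alone and was at background on 2 of the 3 Pcl2 shRNA arrays. In the main fit 1 of 6 tested was lower, beside 8.16% of all genes. With the replicate block 3 of 6 were lower (Col1a1, Col3a1 and Twist2), beside 1808 of 13095 genes. Neural progenitor markers summed to 257 to 269 in Pcl2 shRNA cells and 253 to 397 in mismatch control cells, with Zic1 and Hes5 at background on all arrays. Nes, the neural filament gene nestin, fell, with 84.6 ± 12.7 in Pcl2 shRNA cells and 156 ± 14.7 in mismatch control cells (log2 -0.84, adjusted p = 0.0183, but 0.0682 without mismatch control replicate 1). The other tested probe set of Nes gave -3.47. The part of any of these cell types in the FGF values was not tested.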

How the data were processed

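Total RNA of 3 Pcl2 shRNA and 3 mismatch control samples was hybridised to Mouse Genome 430 2.0 arrays. The deposited values are a MAS5 signal, a linear intensity per probe set, computed by the authors in GCOS 1.4, according to the labels. Per the submitters' processing notes the algorithm was MAS5. The number of arrays limits the precision.

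Of 45101 probe sets, 34945 named 1 gene in the platform annotation, 932 several and 9160 none, and 64 were controls. RefSeq's gene table (GRCm38.p6), which matched 34754, gave symbols, chromosomes and gene order. It held promoters for 5 of the 9 genes. The arrays' own genome build is not given in the sources used here.

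Signals became log2(signal + 7), 7 being the 20th percentile of all values. Probe sets with a mean at or above the 40th percentile (a signal of 20.2) were kept, and the brightest stood for each gene. Groups were compared with limma 3.58.1 in R 4.3.3 (lmFit, eBayes with trend, two-sided, Benjamini-Hochberg). A second fit tested every kept probe set, of which 10.4% passed. Single values had an exact permutation test over 20 relabellings. A gene at or below the background of 20.3 (27 bacterial controls) on all arrays of a group has a bound instead of a fold in the text. The fit was tested on simulated data. Figures were drawn with matplotlib 3.10.9.

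The labels number samples 1 to 3 in both groups. Deviations from group means of same-numbered samples correlated at 0.25 to 0.40 and of others at -0.38 to -0.00. The numbers were therefore taken to mark pairs, on the data alone. The results given are from the fit without pairing, and the text says where the block changes the call of a named gene. With the number as a block 3113 genes passed instead of 1652 (23.8% against 12.6%).

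The 9 genes and all lists were chosen with earlier results of these data known. The text names every one of the 9, Mtf2, up to 4 genes per pathway list by p, marker genes whose groups do not overlap or that define a cell type, and the 3 genes most like each of the 9 that passed. Dusp1, Dusp4, Dusp6, Il17rd, Fos, Spred3, Spry1, Spry2, Spry4, Etv4, Etv5, Egr1, Fosl1, Myc, Sulf2, Sdc1, Gpc6, Fgfbp3, Flrt3, Fgf2, Fgf3, Fgf12, Gpc3, Sdc2, Sos2, LTO1 and Ccnd1, and marker genes outside the rule, were chosen after their values were seen. Some genes of the pathway lists were not analysed here. Alternatives were the block, each array left out, array weights, a floor at background, eBayes robust or without trend, pseudocounts of 1 and 21, median centring or quantile normalization, a filter at the 60th percentile or none, and all probe sets, their mean or those not cross-hybridising. Leaving out arrays and the block in the fit of every probe set were added after seeing the data.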

Additional observations from a re-analysis of the deposited data

How the results depend on the processing

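Fgf4 kept its direction and passed under each of the 14 other settings and with each array left out. Fgf5 and Fgf8 passed in every fit that tested them, but entered the main fit through their control signals alone. A filter at the 60th percentile dropped both, and a pseudocount of 1 dropped Fgf8. The fits without mismatch control replicate 2 (Fgf5) and replicate 3 (Fgf8) dropped 1 each. These losses arise because the filter uses the mean over all arrays. Fgf17 passed under 9 of the 14 settings (adjusted p up to 0.0594) and Fgfr1 under 13, at 0.0528 without the eBayes trend. Of the 9 genes, 5 passed in the main fit, 3 with the filter at the 60th percentile, 3 without the trend, and 2 to 4 with an array left out. ERK feedback and target genes that passed numbered 7 without the trend and 6 to 9 with an array left out, instead of 11. Co-receptor genes numbered 5 to 8 with an array left out, instead of 9. Adaptor genes numbered 1 with the mean of probe sets, where Ptpn11 gave -0.29 and its probe sets disagree. With no filter 2 other FGF genes passed, the second being Fgf12, higher at signals of 13.6, 18.0 and 20.8 in Pcl2 shRNA cells, against 8.08, 0.802 and 3.32 in mismatch control cells, close to or below background. Over all genes, 979 to 1598 passed with an array left out, fewest without Pcl2 shRNA replicate 2. The replicate block gave 3113 genes (1305 higher, 1808 lower); it changed no call among the 9 and added Etv4 (higher) and Spry1, Fosl1 and Myc (lower) to the ERK targets, Gpc3 and Sdc2 (lower) to the co-receptors and Sos2 (lower) to the adaptors. Values near 0 changed sign: Fgfr3 was -0.017 under median centring and -0.11 to 0.31 with an array left out, Fgfr4 was -0.12 with array weights and -0.16 to 0.38 with an array left out, and Etv5 was -0.028 to 0.28. Scaling moved the median of all genes by under 0.1. The cause of these changes was not tested. Signals below 20.3 are not separable from background.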

Other observations

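The genes most like each changed FGF gene over the 6 arrays were listed by Pearson's r of log2 values. These are a description, since the 6 arrays form 2 groups and any gene that differs between them correlates. For Fgf4 the nearest was Pecam1 (r = 0.997), an adhesion molecule on the ESC surface, which rose with it (log2 1.72, adjusted p = 0.00292). Pclo (r = 0.997), at background on all 3 control arrays, and Myh3 (r = 0.996, log2 0.55) followed, and neither passed. For Fgf5 they were Pxdn (r = 0.998), a matrix peroxidase, Zyx (r = 0.997), the focal adhesion protein zyxin, and Nckap1 (r = 0.996). Pxdn (log2 -1.96) and Zyx (log2 -2.68) fell, and Nckap1 (log2 -0.23) did not pass. For Fgf8 they were Gprc5c, Dock11 and Gbp2b (r = 0.999 each). Dock11 (log2 -1.45) and Gbp2b (log2 -4.53) fell. Gprc5c was at background on all 3 Pcl2 shRNA arrays, at least 5.599-fold lower, and so entered the test through its control signals alone. With a pseudocount of 1 the gene did not pass (log2 -0.95, adjusted p = 0.0564). Nor did it pass without any 1 of the mismatch control arrays (adjusted p up to 0.121). Another probe set stood for the gene in those fits, so they do not test the one described here. Gbp2b is an interferon-inducible guanylate-binding protein. For Fgf17 they were Klhl23, P3h3 and Selenot (r = 0.980, 0.979 and 0.979), none of which passed. For Fgfr1 they were Gfpt1 (r = 0.996), the first enzyme of hexosamine synthesis, Slc4a11 (r = 0.995) and Scml2 (r = 0.995), a Polycomb group gene, and all 3 fell. Of 6 fits with an array left out, Gfpt1 passed in 4 and Slc4a11 and Scml2 in 1 each.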
